A study of Saccharomyces cerevisiae with 8 samples.

Results

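The genes described here encode the proteins of the cytosolic ribosome of budding yeast (*Saccharomyces cerevisiae*). They were taken from the gene symbols of the array's probe table: RPL or RPS followed by a number, with or without a final A or B, and RPP with a single digit and the same optional letter. This rule found 135 of 6226 genes. One of them, RPP1 without a letter, encodes a subunit of ribonuclease P, an enzyme that matures transfer RNA, and was kept apart. The other 134 genes comprised 79 of the large subunit, 5 of them encoding the acidic stalk proteins, and 55 of the small subunit. In 57 cases both an A and a B copy were measured, which accounts for 114 of the genes. Of the remainder, 18 encode a protein with no second copy. Each gene had 1 probe.

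Ribosomal proteins are small, mostly basic proteins that assemble with ribosomal RNA into a large subunit, which forms peptide bonds, and a small subunit, which reads the messenger RNA. Most of them are encoded in yeast by duplicate genes left from an ancient duplication of the whole genome, and the A and B copies of a pair encode identical or nearly identical proteins. Their promoters are bound by Rap1, Fhl1, Ifh1 and, in some, Hmo1, and their transcripts, which are among the most abundant of the cell, are known to fall together when growth slows or a stress begins, through the TOR and protein kinase A pathways.

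All cells were of the BY4741 strain, of mating type a (Mat a) and with the alleles ura3∆0, met15∆0 and leu2∆0 as well as his3∆1, and carried the empty vector pFL38H, whose marker is HIS3. The yeast called WTD also expressed AhPDF1.1b, a plant defensin, from plasmid pYX212 under the promoter of triose phosphate isomerase, and the yeast called WT did not. Both were grown as colonies on solid minimal medium without added zinc (WT0, WTD0) or with 20 mmol/L ZnSO4 (WT20, WTD20), and all colonies were harvested at the same diameter. Total RNA of 2 biological replicates of each of the 4 conditions was labelled with Cy3 and hybridised to 8 one-colour Agilent arrays, which sat on 2 slides. Both WT20 arrays were on slide 2 and both WTD20 arrays on slide 1, so that the comparison of these 2 conditions has no value within a slide, while WT0 and WTD0 had 1 array on each.

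The values are log2 signals, normalized between the arrays by the authors, whose medians over all genes were 8.45 to 8.46 on the 8 arrays. Replicates correlated at 0.996 to 0.998 over all genes and at 0.992 to 0.998 over the ribosomal protein genes, and with 2 arrays a condition their number limits the precision. Of the strain's marker genes, LEU2 and MET17 (the deleted met15) were between 5.54 and 5.79 on the 8 arrays. URA3, the marker of pYX212, was between 14.16 and 15.64 on all of them, WT arrays included. The labels do not say outright whether the WT yeast carried pYX212 without the defensin, so that the plasmid behind its URA3 signal is not known here.

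The probes of these genes were among the brightest. Their mean log2 signal over the 8 arrays ran from 6.54 to 14.07 with a median of 11.55, and 83 of 134 lay above the 90th percentile of all genes. Only RPL7B and RPL18B lay below the 25th. No value of a ribosomal protein gene exceeded 14.46, whereas the brightest gene reached 15.90. Signals of different probes are not compared as levels.

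Zinc in WT yeast lowered the ribosomal protein genes as a broad group. The median signal of the 134 genes was 11.77 and 11.69 on the WT0 arrays and 11.09 and 11.00 on the WT20 arrays. It was 11.63 and 11.59 on the WTD0 arrays and 11.28 and 11.52 on the WTD20 arrays. The values are relative to the other genes of an array, so that a change per cell in all transcripts, or in the mix of cells in a colony, cannot be told apart from a change of these genes. In both yeasts the 2 arrays with zinc lay below the 2 without it, and the gap was wider in WT yeast. In AhPDF1.1b yeast the nearest values with and without zinc, 11.52 and 11.59, lay closer together than the 2 WTD20 arrays did. In the fit across all genes with limma (adjusted p under 0.05 over all 6226 genes), 99 ribosomal protein genes fell and 6 rose with zinc in WT yeast, while 29 did not pass. Among all genes, 31.5% fell and 27.8% rose. The median difference of the ribosomal protein genes was -0.54 (quartiles -0.77 to -0.22), beside -0.03 over all genes and -0.05 over the 797 other genes whose probes were as bright as theirs above the lower quartile. On slide 2 alone, which holds 1 WT0 and both WT20 arrays, the median was -0.50, and 117 of 134 genes were lower.

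**Figure D1:**
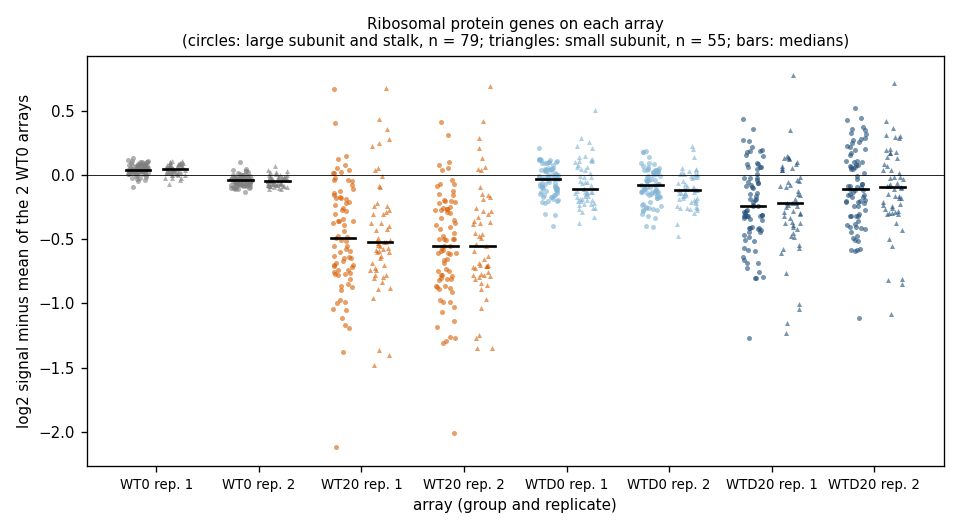
Log2 signal of each ribosomal protein gene on each of the 8 arrays minus its mean on the 2 WT0 arrays, with circles for the 79 large subunit genes, triangles for the 55 small subunit genes and black bars for the medians. The points of both subunits lie lowest on the 2 WT20 arrays, and most points of the WTD20 arrays lie closer to 0.

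Genes of both subunits fell. Zinc in WT yeast lowered 58 of 79 large subunit genes and raised 2, with a median of -0.53, and it lowered 41 of 55 small subunit genes and raised 4, with a median of -0.56. The median signal of the large subunit genes went from 11.75 and 11.68 on the WT0 arrays to 11.09 and 11.05 on the WT20 arrays, and that of the small subunit genes from 11.78 and 11.74 to 11.09 and 10.94. Of the 18 proteins made from a single gene, 16 had lower transcripts and none passed as higher, with a median of -0.65. A copies had a median of -0.56 and B copies of -0.48. No test of the difference between these groups was made.

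Among large subunit genes, RPL9A, which encodes a protein next to the base of the stalk, showed the largest decrease. Its log2 signal was 11.85 on both WT0 arrays and 9.73 and 9.85 on the WT20 arrays. It was 11.68 and 11.59 on the WTD0 arrays and 10.58 and 10.74 on the WTD20 arrays. The groups with and without zinc did not overlap in either yeast, and the WTD20 values lay between those of WT20 and WTD0. Zinc lowered RPL9A by 4.18-fold in WT yeast (log2 difference -2.06, SE 0.077, adjusted p = 7.8e-09 in limma) and by 1.96-fold in AhPDF1.1b yeast (-0.97, SE 0.077, adjusted p = 4.1e-06).

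RPL4A encodes a protein with a long loop in the wall of the peptide exit tunnel. Its signal was 13.77 and 13.69 on the WT0 arrays, 12.56 and 12.47 on the WT20 arrays, 13.60 and 13.59 on the WTD0 arrays and 13.38 and 13.45 on the WTD20 arrays. The 2 WT20 arrays stood below the other six. The zinc effect was -1.21 in WT yeast (SE 0.070, limma adjusted p = 1.8e-07). RPL3, whose protein reaches the peptidyl transferase centre, fell by 0.66 (SE 0.070, limma adjusted p = 1.7e-05), with signals of 12.22 and 12.21 on the WT0 arrays and 11.51 and 11.61 on the WT20 arrays. RPL5 and RPL11A encode the proteins that carry the 5S ribosomal RNA (5S names a size class) into the large subunit. RPL5 fell by 0.78 (SE 0.111, adjusted p = 0.00013) and RPL11A by 0.69 (SE 0.087, adjusted p = 5.6e-05) in the same fit. RPL10, the protein added last and needed for the subunits to join, passed in none of the 6 comparisons, with signals of 13.24 and 13.33 (WT0), 13.24 and 13.38 (WT20), 13.25 and 13.47 (WTD0) and 13.64 and 13.38 (WTD20).

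The stalk recruits the GTPases of translation. It consists of the anchor protein P0 (RPP0) and the acidic proteins P1 and P2, which yeast makes in A and B forms. Of these 5 genes, 4 fell with zinc in WT yeast. RPP0 had signals of 13.67 and 13.72 on the WT0 arrays, 12.70 and 12.67 on the WT20 arrays, 13.80 and 13.41 on the WTD0 arrays and 13.50 and 13.37 on the WTD20 arrays. It was lower by 1.01 (SE 0.109, limma adjusted p = 1.8e-05) in WT yeast, and with AhPDF1.1b the zinc and control arrays overlapped. RPP1B went from 11.08 and 11.03 to 9.68 and 9.75 with zinc in WT yeast, and from 11.07 and 10.78 to 10.33 and 10.61 in AhPDF1.1b yeast. It fell by 1.34 (SE 0.110, adjusted p = 2.3e-06) in the former. In the latter it fell by 0.46 (SE 0.110, adjusted p = 0.0062), but this call was lost without WTD0 replicate 1 (-0.31, adjusted p = 0.061) or without WTD20 replicate 1 (-0.32, adjusted p = 0.062). Its partner RPP1A lay at 10.20 and 9.98 (WT0), 10.21 and 10.01 (WT20), 10.00 and 10.11 (WTD0) and 10.13 and 10.19 (WTD20), so that WT0 and WT20 overlapped and both WTD20 arrays lay just above the WTD0 arrays, and it passed in no comparison. RPP2A fell by 0.77 (SE 0.158, adjusted p = 0.0016) in WT yeast. RPP2B fell by 0.30 (SE 0.099, adjusted p = 0.023), a call lost with slide as a block (-0.25, adjusted p = 0.088), without WT0 replicate 1 (-0.27, adjusted p = 0.11) and without WT20 replicate 2 (-0.25, adjusted p = 0.12).

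Rpl40, from RPL40A and RPL40B, and Rps31 are made as fusions to ubiquitin, which is cut off as the ribosome matures. RPS31 was at 14.46 and 14.24 on the WT0 arrays, 13.56 and 13.46 on the WT20 arrays, 14.09 and 14.21 on the WTD0 arrays and 14.19 and 14.34 on the WTD20 arrays. Only the 2 WT20 arrays stood apart. The zinc effect was -0.84 in WT yeast (SE 0.091, limma adjusted p = 1.8e-05), and none passed in AhPDF1.1b yeast. RPL40A fell by 0.44 in WT yeast (SE 0.085, adjusted p = 0.0011), whereas RPL40B passed in no comparison, at 11.39 and 11.27 (WT0), 11.20 and 11.05 (WT20), 11.33 and 11.20 (WTD0) and 11.00 and 11.24 (WTD20).

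In the small subunit, the genes for Rps2, Rps3 and Rps9, neighbours at the entry of the messenger RNA channel, gave 3 different patterns. RPS2 had signals of 14.33 on both WT0 arrays, 12.97 and 13.06 on the WT20 arrays, 14.10 and 14.15 on the WTD0 arrays and 14.04 and 14.05 on the WTD20 arrays. It was 2.49-fold lower with zinc in WT yeast (log2 difference -1.31, SE 0.066, limma adjusted p = 6.1e-08), and its WTD20 values were close below those of WTD0. RPS3 was at 13.73 and 13.72 (WT0), 13.00 and 12.92 (WT20), 13.53 and 13.61 (WTD0) and 13.87 on both WTD20 arrays. It fell by 0.77 (SE 0.067, adjusted p = 3.7e-06) in WT yeast and rose by 0.30 (SE 0.067, adjusted p = 0.0043) in AhPDF1.1b yeast. The RPS9 copies are described with the paralogue pairs. RPS22A, which encodes a protein of the subunit's body, fell from 12.40 and 12.37 to 10.91 and 11.04 in WT yeast (-1.41, SE 0.085, adjusted p = 2.4e-07) and from 12.31 and 12.14 to 11.38 and 11.54 in AhPDF1.1b yeast (-0.77, SE 0.085, adjusted p = 4.5e-05). RPS6A and RPS6B, both copies of the protein that is phosphorylated downstream of TOR, fell by 0.96 (SE 0.090, adjusted p = 6.6e-06) and 0.85 (SE 0.090, adjusted p = 1.5e-05) in WT yeast.

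The 6 genes that rose with zinc in WT yeast went against the group. All 6 have a measured paralogue, as do 114 of the 134 genes. They were RPS27A (0.69, SE 0.112, limma adjusted p = 0.00034), RPL22B (0.54, SE 0.097, adjusted p = 0.00064), RPS30B (0.43, SE 0.067, adjusted p = 0.00026), RPL15B (0.36, SE 0.070, adjusted p = 0.0011), RPS25B (0.32, SE 0.076, adjusted p = 0.0035) and RPS9A (0.24, SE 0.085, adjusted p = 0.03). None of their paralogues passed as higher. In RPS30B the signals were 8.93 and 9.01 on the WT0 arrays and 9.40 and 9.39 on the WT20 arrays. RPL15B had 9.75 and 9.74 on the WT0 arrays and 10.15 and 10.05 on the WT20 arrays, and RPS25B had 11.61 and 11.51 against 11.92 and 11.85. In each of these genes the 2 WT20 arrays lay above the 2 WT0 arrays. The call of RPS9A was lost when any of the 4 arrays was left out (adjusted p = 0.057 to 0.14). No alternative turned the direction of any of the 6.

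Zinc in AhPDF1.1b yeast changed fewer ribosomal protein genes. In limma 32 fell and 11 rose, and 91 did not pass. Among all genes, 24% fell and 21.8% rose, so that the 23.9% of ribosomal protein genes that fell was near the share of all genes. The median difference was -0.09 (quartiles -0.22 to 0.09), and on slide 1 alone, with 1 WTD0 and both WTD20 arrays, it was -0.05. Large subunit genes numbered 20 lower and 6 higher, and small subunit genes 12 lower and 5 higher, with medians of -0.10 and -0.08. The member count of 43 was lower under some settings: 28 with slide as a block (23 lower and 5 higher), 22 without WTD0 replicate 1 (17 lower and 5 higher) and 28 without WTD20 replicate 1. In the last case the balance turned, with 12 lower and 16 higher. Over all genes the block for slide left 2366 passing in place of 2851. The median of the ribosomal protein genes was -0.053 without WTD0 replicate 1 and -0.033 without WTD20 replicate 1, and -0.12 and -0.14 without the second array of either condition.

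The largest decreases after RPL9A in AhPDF1.1b yeast were those of RPS9B (-0.87, SE 0.068, limma adjusted p = 3.7e-06), RPS26B (-0.77, SE 0.119, adjusted p = 0.00046), RPS22A, given above, and RPS12 (-0.69, SE 0.134, adjusted p = 0.0019). Rps26 and Rps12 sit at the exit of the messenger RNA channel and in the beak of the small subunit. RPS12 was at 13.95 and 13.92 (WT0), 13.51 and 13.68 (WT20), 13.92 and 13.46 (WTD0) and 12.89 and 13.12 (WTD20). The WTD20 arrays were the lowest, and the 2 WTD0 arrays lay far apart. RPS20, of the head of the small subunit, was at 13.37 and 13.32 (WT0), 13.04 and 13.19 (WT20), 13.29 and 13.10 (WTD0) and 12.58 and 12.79 (WTD20), again lowest on the WTD20 arrays.

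Of the 11 increases, the largest was that of RPS9A (0.84, SE 0.085, limma adjusted p = 2.3e-05). RPS29B, which encodes a small subunit protein with a zinc-binding motif, rose by 0.37 (SE 0.077, adjusted p = 0.0028), from 11.91 and 11.98 to 12.27 and 12.34. RPL37A, RPL33B and RPL29 rose by 0.32 (SE 0.097, adjusted p = 0.021), 0.31 (SE 0.075, adjusted p = 0.0061) and 0.31 (SE 0.085, adjusted p = 0.013). These last calls were less stable. With slide as a block the adjusted p was 0.091 for RPL37A and 0.059 for RPL29. Without WTD0 replicate 1 it was 0.14 and 0.083, and without WTD20 replicate 2 it was 0.13 for RPL37A, 0.06 for RPL33B and 0.1 for RPL29.

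Set side by side, the zinc effects in the 2 yeasts shared no array. Of the 99 genes that fell in WT yeast, 30 also fell in AhPDF1.1b yeast, 65 did not pass there and 4 rose: RPS3, RPL29, RPL33B and RPL39, the last chosen after its values were seen. With slide as a block the rise of RPL39 (0.23, adjusted p = 0.054) and the fall of RPL33B in WT yeast (-0.19, adjusted p = 0.11) did not pass, and with a replicate block the latter had an adjusted p of 0.062. Of the 30 that fell in both, 29 had the smaller decrease in AhPDF1.1b yeast, by the same fitted values that picked them. Of the 6 that rose in WT yeast, only RPS9A also rose in AhPDF1.1b yeast, and the other 5 did not pass there. RPS20 and RPS26B passed as lower in AhPDF1.1b yeast and did not pass in WT yeast. In 21 genes neither zinc effect passed. Of all genes 31.5% fell and 27.8% rose with zinc in WT yeast, and 24% fell and 21.8% rose in AhPDF1.1b yeast. The overlap of the calls and the correlation below were not computed over all genes, so whether they are particular to these genes was not tested. Over the 134 genes the effects correlated at r = 0.575 (Pearson) and rho = 0.572 (Spearman), a description across genes of the same arrays, which are not independent.

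**Figure D2:**
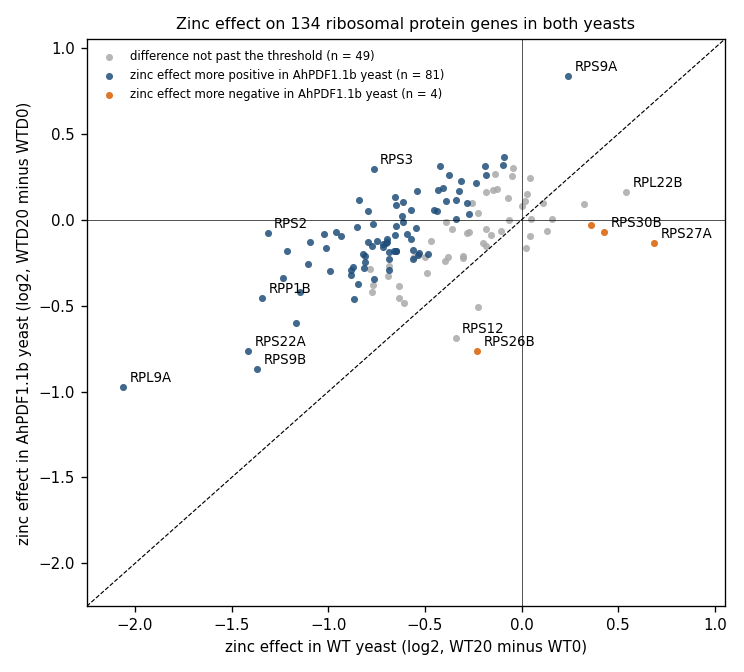
Zinc effect on each of the 134 ribosomal protein genes in WT yeast (x axis, log2, WT20 minus WT0) and in AhPDF1.1b yeast (y axis, log2, WTD20 minus WTD0), coloured by the test of the difference between the 2 effects, with the dashed line where they are equal. Most points lie above the line, with 81 in dark blue past the threshold, and RPS27A, RPS26B, RPS30B and RPL15B are the 4 orange points below it.

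The difference of the zinc effects was tested directly. In limma, 81 ribosomal protein genes had a more positive zinc effect in AhPDF1.1b yeast than in WT yeast and 4 a more negative one, against 17.7% and 16% of all genes. The median of the difference was 0.45 (quartiles 0.22 to 0.60). By subunit these were 45 more positive and 1 more negative of 79 in the large (median 0.42) and 36 and 3 of 55 in the small (median 0.48). Of the 99 genes that fell in WT yeast, 77 were among the 81. Both counts use the same WT0 and WT20 arrays, so this overlap is in part built in and is no separate support. With slide as a block 50 ribosomal protein genes passed, 48 of them more positive, and over all genes 1258 passed in place of 2095. Since each zinc condition lay on 1 slide, slide and the difference between the zinc conditions can be separated only through the control arrays. The difference of the zinc effects measured within slides had a median of 0.42 and was positive for 117 of 134 genes.

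The largest differences of this kind were those of RPS2 (1.24, SE 0.093, limma adjusted p = 6.7e-06), RPL9A (1.09, SE 0.109, adjusted p = 4.7e-05), RPS3 (1.06, SE 0.094, adjusted p = 2.1e-05), RPL4A (1.03, SE 0.099, adjusted p = 3.5e-05) and RPL9B (0.96, SE 0.119, adjusted p = 0.00018). In the stalk the test passed for RPP0 (0.85, adjusted p = 0.0021) and RPP1B (0.89, adjusted p = 0.0017), and among the ubiquitin fusions for RPS31 (0.96, adjusted p = 0.00032) and RPL40A (0.49, adjusted p = 0.01), the last lost with slide as a block (0.42, adjusted p = 0.088). RPS6A and RPS6B had differences of 0.89 and 0.81. The 4 genes of opposite sign were RPS27A (-0.82, adjusted p = 0.0028), RPS26B (-0.54, adjusted p = 0.032), RPS30B (-0.50, adjusted p = 0.0027) and RPL15B (-0.39, adjusted p = 0.012). With slide as a block RPS26B (adjusted p = 0.07) and RPL15B (adjusted p = 0.096) did not pass. RPS26B also lost its call without WT0 replicate 2 (-0.45, adjusted p = 0.1), without either WT20 or either WTD0 array (adjusted p = 0.055 to 0.095) and without WTD20 replicate 1 (-0.33, adjusted p = 0.084).

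On control medium, few ribosomal protein genes differed between the yeasts. None was higher and 2 were lower with AhPDF1.1b in limma, against 3% and 2.65% of all genes, and the median difference was -0.09, with a range of -0.34 to 0.32. On slide 1 the median was -0.15 and on slide 2 it was -0.02, and it ran from -0.046 without WT0 replicate 1 to -0.12 without WT0 replicate 2. The 2 genes were RPS16A, whose protein touches the transfer RNA on the small subunit, and RPL18B, a large subunit gene. RPS16A was at 11.23 and 11.06 on the WT0 arrays and 10.77 and 10.85 on the WTD0 arrays (-0.34, SE 0.084, adjusted p = 0.044). RPL18B was at 7.64 and 7.54 against 7.19 and 7.33 (-0.33, SE 0.074, adjusted p = 0.028). The groups did not overlap, but both calls were lost when some single arrays were left out: RPL18B without either WT0 array or WTD0 replicate 1 (adjusted p = 0.082 to 0.23), RPS16A without any of the 8 arrays but the WTD20 arrays (adjusted p = 0.063 to 0.32).

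With zinc in the medium, AhPDF1.1b yeast had higher signals than WT yeast for most ribosomal protein genes. In limma 89 were higher and 7 lower, against 26.8% and 22% of all genes, and the median difference was 0.39 (quartiles 0.12 to 0.53) beside 0.09 over other genes as bright. This held in both subunits: 53 higher and 2 lower of the large (median 0.38), and 36 higher and 5 lower of the small (median 0.42). Of the 18 proteins made from a single gene, 14 had higher and 2 lower transcripts. The WT20 and WTD20 arrays lay on different slides, which cannot be told apart from the condition in a direct comparison. With slide as a block most of the 89 higher calls held, but a sizeable part was lost. Among those lost were RPL11B (0.43, limma adjusted p = 0.088), RPL22A (0.44, adjusted p = 0.091), RPL19A (0.18, adjusted p = 0.27) and RPL34B (0.11, adjusted p = 0.5). Over all genes 1755 passed in that fit in place of 3037. Of the 7 lower genes only RPL15B (-0.42, adjusted p = 0.016) and RPS26B (-0.88, adjusted p = 0.0055) still passed. RPL8A (adjusted p = 0.12) and RPS30B (adjusted p = 0.16) were among those lost.

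RPS2 (1.03, SE 0.066, limma adjusted p = 1e-06) and RPS3 (0.91, SE 0.067, adjusted p = 2.8e-06) were the most increased, followed by RPL12B, at the base of the stalk (0.91, SE 0.074, adjusted p = 5.7e-06), RPL4A (0.90, SE 0.070, adjusted p = 4.4e-06) and RPL9A (0.87, SE 0.077, adjusted p = 1e-05). RPL12B had signals of 12.43 and 12.38 (WT0), 11.43 and 11.33 (WT20), 12.30 and 12.45 (WTD0) and 12.30 and 12.28 (WTD20), so that the 2 WT20 arrays alone stood low. The largest decreases were those of RPS26B (-0.79, SE 0.119, adjusted p = 0.00035), RPS12 (-0.59, SE 0.134, adjusted p = 0.0043), RPS27A (-0.50, SE 0.112, adjusted p = 0.0039), RPL15B (-0.47, SE 0.070, adjusted p = 0.00031) and RPS20 (-0.43, SE 0.095, adjusted p = 0.0037). With slide as a block RPS12 (-0.37, adjusted p = 0.14), RPS27A (-0.35, adjusted p = 0.12) and RPS20 (-0.36, adjusted p = 0.086) did not pass.

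Measured against untreated WT yeast, zinc together with AhPDF1.1b lowered 56 ribosomal protein genes and raised 9 in limma, against 27.1% and 24.6% of all genes, with a median of -0.17. Without WT0 replicate 1, 43 genes passed in place of 65. The median ran from -0.097 without WTD20 replicate 1 to -0.24 without WTD20 replicate 2. The largest decreases were RPL9A (-1.19, SE 0.077, adjusted p = 7.2e-07), RPS9B (-1.12, SE 0.068, adjusted p = 4.3e-07), RPS26B (-1.02, SE 0.119, adjusted p = 4.8e-05), RPS12 (-0.93, SE 0.134, adjusted p = 0.00021) and RPS22A (-0.93, SE 0.085, adjusted p = 8.5e-06). RPS9A rose by 0.74 (SE 0.085, adjusted p = 3.9e-05), RPS29B by 0.39 (SE 0.077, adjusted p = 0.0017) and RPL15A by 0.34 (SE 0.075, adjusted p = 0.0031). RPL11B rose by 0.36 (SE 0.114, adjusted p = 0.022), from 10.42 and 10.24 on the WT0 arrays to 10.53 and 10.86 on the WTD20 arrays, and RPL22B by 0.36 (SE 0.097, adjusted p = 0.01). Both calls were lost without WT0 replicate 2 (adjusted p = 0.14 and 0.076) and without WTD20 replicate 2 (adjusted p = 0.19 and 0.082), and that of RPL11B also with slide as a block (0.33, adjusted p = 0.075).

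The 2 copies of a pair did not always share these changes. For each pair the A minus B difference on the log2 scale was taken on each array and fitted in limma together with all genes, which tests whether the 2 copies changed by different amounts. With zinc in WT yeast 29 of 57 pairs differed, the A copy being the more positive in 10 and the B copy in 19, where 59.2% of all rows of that fit, genes and pairs, passed. With zinc in AhPDF1.1b yeast 22 differed (12 and 10), against 45.7%. For AhPDF1.1b the counts were 1 on control medium, against 5.57%, and 31 under zinc (22 and 9), against 48.7%. For zinc plus AhPDF1.1b 28 differed, against 51.5%, and for the difference of zinc effects 15, against 33.5%. A block for slide turned the counts of 22, 31 and 15 into 14, 16 and 9. Without WTD0 replicate 1 or WTD20 replicate 1 the count of 22 became 14 or 13. Probe sequences were not used here, so how much of the signal of one copy comes from the transcript of the other was not tested.

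Most differences between copies were modest. The median absolute A minus B difference was 0.23 with zinc in WT yeast and 0.19 in AhPDF1.1b yeast, against 0.09 for AhPDF1.1b on control medium. With zinc in WT yeast it reached 1 in 4 pairs, and in 4 pairs the copies passed in opposite directions: RPL22, RPS9, RPS27 and RPS25. Across the 57 pairs the changes of the A and the B copy correlated at r = 0.15 in WT yeast and r = -0.08 in AhPDF1.1b yeast, as a description. In 14 pairs no comparison passed, among them RPL4 and RPL12, whose copies fell by 1.21 and 1.23 and by 0.93 and 1.02 with zinc in WT yeast, and RPS6. Of the 17 pairs that differed with zinc in both yeasts, 14 did so in the same direction.

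**Figure D3:**
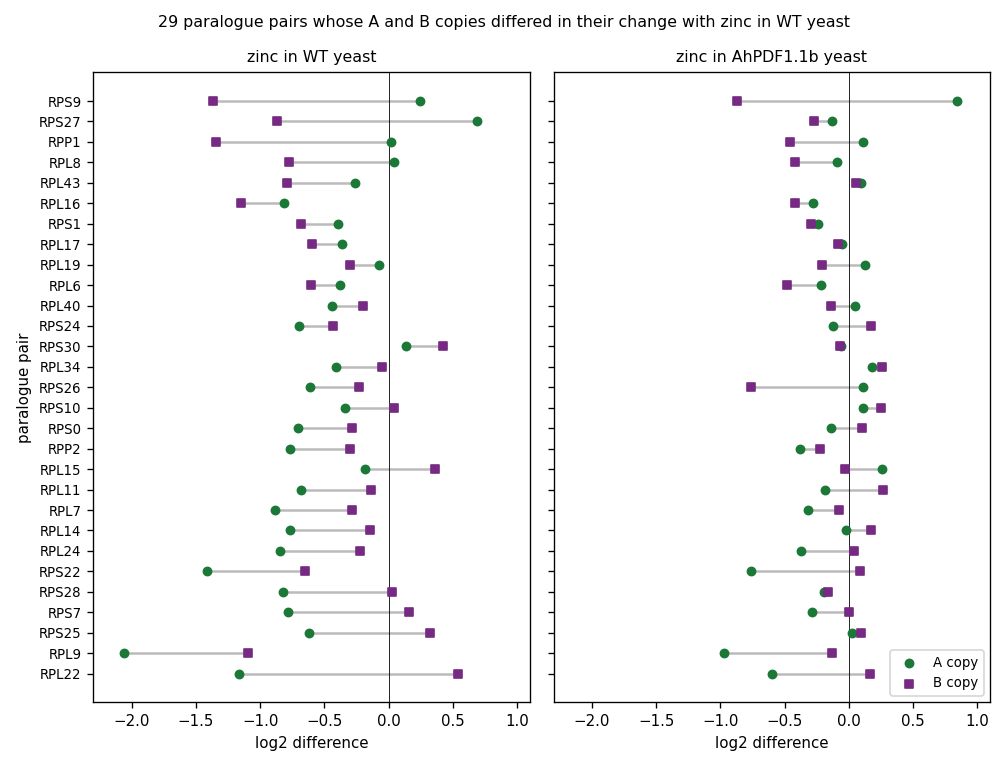
Log2 difference with zinc of the A copy (green circles) and the B copy (purple squares) in WT yeast (left) and AhPDF1.1b yeast (right), for the 29 pairs that differed in WT yeast, ordered by their A minus B difference there. RPL22 and RPS9 stand at the ends, and RPS9 is the only pair whose copies lie more than 1 unit apart in both panels.

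RPS9, of the messenger RNA entry, was the pair with the largest value in AhPDF1.1b yeast and the second largest in WT yeast. RPS9A was at 9.36 on both WT0 arrays, 9.63 and 9.56 on the WT20 arrays, 9.14 and 9.39 on the WTD0 arrays and 10.14 and 10.07 on the WTD20 arrays. RPS9B was at 12.29 and 12.34, 10.92 and 10.97, 12.03 and 12.11, and 11.16 and 11.23 in the same order. The A copy was highest on the WTD20 arrays and the B copy lowest on the WT20 arrays, and neither copy's ranges with and without zinc overlapped in either yeast. The A minus B difference changed by 1.61 with zinc in WT yeast (SE 0.083, limma adjusted p = 7.6e-08), by 1.71 in AhPDF1.1b yeast (SE 0.083, adjusted p = 1.3e-07) and by 1.86 for zinc plus AhPDF1.1b (SE 0.083, adjusted p = 5e-08).

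RPL22 encodes a large subunit protein that also represses the splicing of its own B copy's transcript. RPL22A was at 12.14 and 11.93 (WT0), 10.99 and 10.74 (WT20), 12.02 and 11.97 (WTD0) and 11.23 and 11.55 (WTD20). RPL22B was at 7.86 and 7.73 (WT0), 8.46 and 8.21 (WT20), 8.00 and 7.97 (WTD0) and 8.06 and 8.24 (WTD20). The copies moved in opposite directions with zinc in WT yeast, where the A minus B difference changed by -1.71 (SE 0.072, limma adjusted p = 1.8e-08), and by less in AhPDF1.1b yeast, so that the zinc effects on the pair differed by 0.94 (SE 0.102, adjusted p = 7.7e-05).

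RPS27, whose protein carries a zinc finger, differed in all comparisons but that of zinc in AhPDF1.1b yeast. RPS27A was at 10.07 and 10.01 (WT0), 10.72 and 10.74 (WT20), 10.55 and 10.18 (WTD0) and 10.13 and 10.33 (WTD20). RPS27B was at 12.67 and 12.55 (WT0), 11.73 and 11.75 (WT20), 12.55 and 12.35 (WTD0) and 12.00 and 12.35 (WTD20). On the WT20 arrays the A copy was highest and the B copy lowest. The A minus B difference rose by 1.56 with zinc in WT yeast (SE 0.080, limma adjusted p = 7.4e-08). No other pair differed when AhPDF1.1b was expressed without zinc, where the value of RPS27 was 0.48 (SE 0.080, adjusted p = 0.0071), a call lost without WT0 replicate 1 (0.44, adjusted p = 0.077). Its zinc effect differed between the yeasts by -1.42 (SE 0.113, adjusted p = 1.1e-05).

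RPS26 gave the opposite picture. RPS26A was at 13.81 and 13.67 (WT0), 13.23 and 13.03 (WT20), 13.61 and 13.60 (WTD0) and 13.66 and 13.76 (WTD20). RPS26B was at 12.37 and 12.19 (WT0), 12.01 and 12.10 (WT20), 12.03 and 12.02 (WTD0) and 11.05 and 11.47 (WTD20). The A copy was lowest on the WT20 arrays and the B copy on the WTD20 arrays. Under zinc the A minus B difference was 1.37 higher in AhPDF1.1b yeast than in WT yeast (SE 0.114, limma adjusted p = 6.5e-06), the largest value of any pair in that comparison. RPL15, a protein buried in the large subunit, followed with 1.00 (SE 0.079, adjusted p = 5.1e-06): RPL15A was at 12.84 and 12.91 on the WT20 arrays and 13.49 and 13.32 on the WTD20 arrays, and RPL15B at 10.15 and 10.05 against 9.64 and 9.61.

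**Figure D4:**
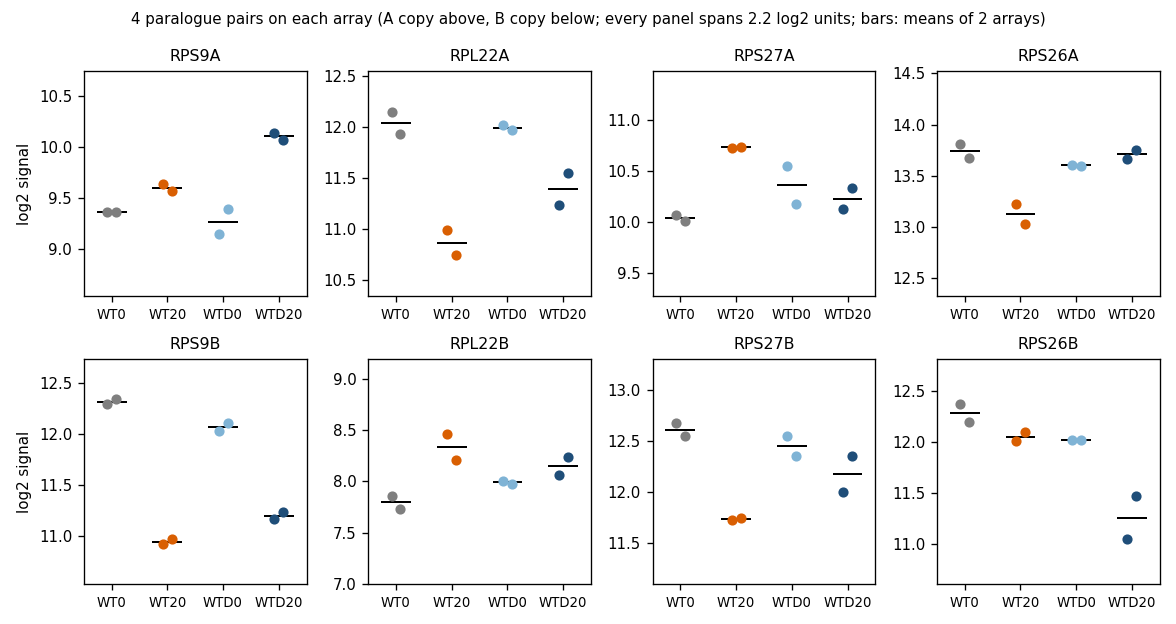
Log2 signal of the A copy (top) and the B copy (bottom) of RPS9, RPL22, RPS27 and RPS26 on each array of the 4 conditions, with bars for the means of 2 arrays, in panels that all span the same range of log2 units around different centres. In RPS27 the WT20 points are the highest in the upper panel and the lowest in the lower one, and in RPS26 the WTD20 points are the lowest of the B copy only.

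Both copies of RPL9 fell with zinc in WT yeast, though not equally, while in AhPDF1.1b yeast RPL9A fell and RPL9B did not pass. RPL9B was at 11.82 and 11.73 (WT0), 10.72 and 10.64 (WT20), 11.55 and 11.65 (WTD0) and 11.37 and 11.58 (WTD20), and it fell by 1.09 with zinc in WT yeast (SE 0.084, limma adjusted p = 1.5e-06), about 1 unit less than RPL9A. Its arrays with and without zinc overlapped in AhPDF1.1b yeast (-0.13, adjusted p = 0.24). The A minus B difference changed by -0.97 in WT yeast (SE 0.089, adjusted p = 5.5e-06) and by -0.84 in AhPDF1.1b yeast (SE 0.089, adjusted p = 3.1e-05). In the stalk the RPP1 pair changed by 1.36 in WT yeast (SE 0.138, adjusted p = 1.2e-05), where RPP1B fell and RPP1A did not pass.

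Neighbouring genes had unlike values in places. In the RefSeq annotation 9 couples of ribosomal protein genes are neighbours. RPS14B, RPS22A and RPL39 follow each other and had zinc effects in WT yeast of -0.16, -1.41 and -0.31. RPP1A and RPL13A, also neighbours, had fitted values of 0.02 and -0.69. No test was made of these differences. RPP1, the ribonuclease P subunit that only shares the name, was at 7.50 and 7.53 (WT0), 7.04 and 7.08 (WT20), 7.57 and 7.41 (WTD0) and 7.30 and 7.31 (WTD20).

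Other genes of the translation machinery were set beside the ribosomal proteins. The 9 ribosome-associated genes, which encode the scaffold Asc1, the clamp Stm1 and the chaperones that meet the nascent chain, all fell with zinc in WT yeast, with a median of -0.77, and 7 fell in AhPDF1.1b yeast (median -0.45), where 31.5% and 24% of all genes fell. ASC1 fell by 1.69 in WT yeast (SE 0.102, limma adjusted p = 2.5e-07), EGD2, of the nascent polypeptide-associated complex, by 1.38 (SE 0.073, adjusted p = 9.4e-08) and STM1 by 0.98 (SE 0.073, adjusted p = 1.2e-06). Under zinc 5 were higher and 1 lower with AhPDF1.1b, where 26.8% and 22% of all genes were. ASC1 was 1.19 higher there (SE 0.102, limma adjusted p = 8e-06), in a comparison of arrays on different slides. The zinc effect on ASC1 differed between the yeasts by 1.58 (SE 0.144, adjusted p = 2.5e-05).

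Ribosome assembly factors, the nucleolar proteins that build the subunits, were counted in the same way, and no test of their difference from the ribosomal proteins was made. Of 45 genes, 28 fell and 6 rose with zinc in WT yeast (median -0.30), and 28 fell and none rose in AhPDF1.1b yeast (median -0.35). Of all genes 31.5% fell and 27.8% rose in the former, and 24% and 21.8% in the latter. Under zinc 18 were lower and 4 higher in AhPDF1.1b yeast, with a median of -0.17, where 22% of all genes were lower and 26.8% higher. The difference of zinc effects passed for 5 genes with a more positive and 7 with a more negative effect (median -0.02), against 17.7% and 16% of all genes. Of 56 mitochondrial ribosomal protein genes, 24 fell and 8 rose in WT yeast (median -0.13) and 14 fell and 4 rose in AhPDF1.1b yeast (median -0.15). The 25% that fell in AhPDF1.1b yeast was near the 24% of all genes, and in WT yeast 42.9% fell beside 31.5%. Their median difference between the zinc effects was 0.03.

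**Figure D5:**
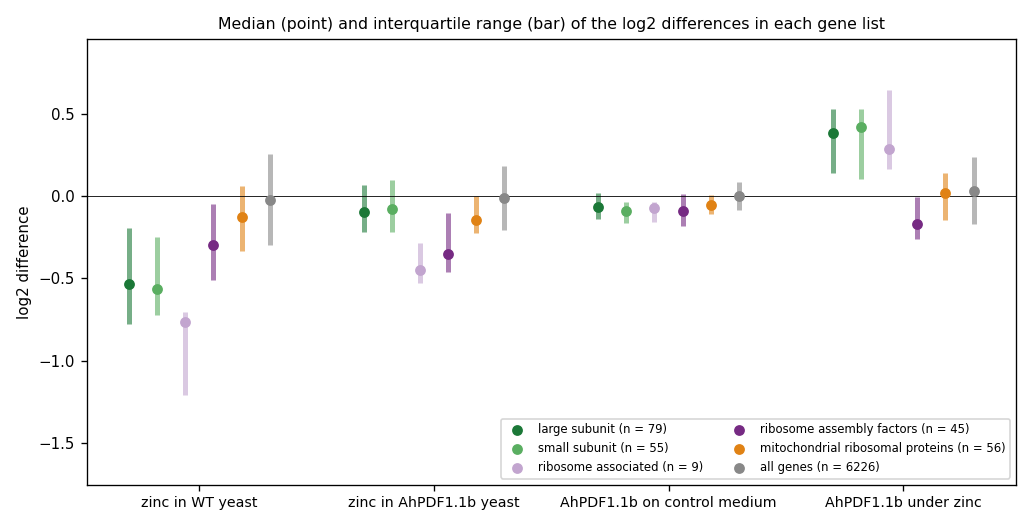
Median (points) and interquartile range (bars) of the log2 differences of the large and small subunit genes, the ribosome-associated genes, the assembly factors, the mitochondrial ribosomal protein genes and all genes in 4 comparisons. Both subunits lie below 0 for zinc in WT yeast, near 0 in the next 2 comparisons and above 0 for AhPDF1.1b under zinc, where the assembly factors lie below 0.

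Of 15 measured regulators of these genes, 4 rose and 5 fell with zinc in WT yeast (median -0.11), shares of 26.7% and 33.3% that were near the 27.8% and 31.5% of all genes. In AhPDF1.1b yeast 1 rose and none fell, against 21.8% and 24%. The zinc effect differed for 5, in 3 more positive and in 2 more negative, against 17.7% and 16%. IFH1, the coactivator that joins Fhl1 at the promoters, rose by 0.57 in WT yeast (SE 0.067, limma adjusted p = 3.4e-05) and was 0.45 lower in AhPDF1.1b yeast under zinc (log2 difference -0.45, SE 0.067, adjusted p = 0.00035). SFP1, an activator of ribosomal protein and assembly genes, rose by 0.42 (SE 0.075, adjusted p = 0.00067), as did ESA1, the acetyltransferase at these promoters, by 0.50 (SE 0.082, adjusted p = 0.00033). TOR1, the kinase, fell by 0.66 (SE 0.088, adjusted p = 7.9e-05). The zinc effect differed between the yeasts for IFH1 by -0.46 (SE 0.095, adjusted p = 0.0038), for ESA1 by -0.54 (SE 0.115, adjusted p = 0.0047) and for TOR1 by 0.44 (SE 0.124, adjusted p = 0.02). The call of TOR1 was lost with slide as a block (0.40, adjusted p = 0.12) and without WT0 replicate 2, WT20 replicate 1, WTD0 replicate 1 or WTD20 replicate 1 (adjusted p = 0.066 to 0.074).

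Dedicated chaperones bind a particular new ribosomal protein before it joins the ribosome. Of 8 measured, 4 fell and 2 rose with zinc in WT yeast, where 31.5% of all genes fell and 27.8% rose, and 4 fell and 1 rose in AhPDF1.1b yeast, where 24% fell and 21.8% rose. YAR1, the chaperone of Rps3, rose by 0.83 in WT yeast (SE 0.084, limma adjusted p = 1.2e-05) and by 0.52 in AhPDF1.1b yeast (SE 0.084, adjusted p = 0.00062), while RPS3 itself fell in the former and rose in the latter. RRB1, the chaperone of Rpl3, fell by 0.45 in AhPDF1.1b yeast (SE 0.074, adjusted p = 0.00072). It was also lower with AhPDF1.1b when no zinc was added (-0.45, adjusted p = 0.0069), a call lost without WT0 replicate 2 (-0.37, adjusted p = 0.072). Under zinc, 4 chaperone genes were lower and none higher with AhPDF1.1b, against 22% and 26.8% of all genes, among them RRB1 (-0.59, SE 0.074, adjusted p = 0.0001) and SQT1, the chaperone of Rpl10 (-0.40, SE 0.091, adjusted p = 0.0045).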

How the data were processed

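Total RNA of yeast was measured on 8 one-colour Agilent arrays. The deposited values are log2 signals, 1 per probe and array, already normalized by the authors. In their processing notes the submitters name limma and R 2.14.2, with no role. For background correction, normalization and filters the method is not given in the sources. No further scaling was applied. Of 6227 probes, 4061 had 1 symbol, 0 had several and 2166 were unnamed. Through the RefSeq gene table (R64 assembly, used for names and neighbours only) 125 older symbols were updated, none of them of a ribosomal protein gene. Averaging 2 probes of a gene left 6226 genes. Probe, promoter and protein sequences were not used here.

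Using limma 3.58.1 under R 4.3.3, a mean for each of the 4 conditions was fitted to all arrays (lmFit), and variances were moderated (eBayes) with 6.36 prior beside 4 residual degrees of freedom. P-values were adjusted by Benjamini-Hochberg over all 6226 genes in each of 6 comparisons, or over 6283 rows with the 57 pairs, at a threshold of 0.05 with no minimum difference. The steps were tested on simulated data. A slide term passed for 0 genes (104 at an unadjusted p under 0.05, 4 of them ribosomal protein genes). Lists are given by counts and medians without a set test.

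The genes and lists were chosen with earlier results of these data known. The text names a fixed set of well-known members, the 5 largest passing increases and decreases, the 4 genes farthest from the members' median and the 4 pairs with the largest difference in each comparison, and up to 4 genes of another list by p. Alternatives were other scalings (quantile normalization, centring on the median or on the mean linear signal), a block for slide or for replicate, dropping the dimmest 25% of genes, weighting the arrays, moderation that was robust and followed intensity, a fit to only the arrays compared, a minimum log2 difference of 1, and leaving out each array.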

Additional observations from a re-analysis of the deposited data

Results flagged for a closer look

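For 85 of the 134 ribosomal protein genes the test of the difference itself in limma passed between the zinc effects of the 2 yeasts. The zinc effect was more positive in AhPDF1.1b yeast for 81 of them and more negative for 4, against 17.7% and 16% of all genes. Among the large subunit genes named above it was more positive in AhPDF1.1b yeast for RPL3 (0.57), RPL4A (1.03), RPL5 (0.62), RPL9A (1.09), RPL9B (0.96), RPL11A (0.50), RPL22A (0.56), RPL40A (0.49), RPP0 (0.85) and RPP1B (0.89), all as log2 values, and more negative for RPL15B (-0.39). In the small subunit it was more positive for RPS2 (1.24), RPS3 (1.06), RPS6A (0.89), RPS6B (0.81), RPS25A (0.64), RPS26A (0.72), RPS27B (0.60) and RPS31 (0.96), and more negative for RPS26B (-0.54), RPS27A (-0.82) and RPS30B (-0.50). Each zinc condition lay on 1 slide of its own, and with slide as a block the calls of RPL11A, RPL15B, RPL22A, RPL40A, RPS25A, RPS26B and RPS27B were lost. Those of RPL22A, RPS26B and RPS27B were also lost when some single arrays were left out (RPL22A adjusted p = 0.056 to 0.094 without WT0 replicate 1, WT20 replicate 2, either WTD0 array or WTD20 replicate 2, RPS27B adjusted p = 0.052 and 0.058 without WT0 replicate 1 or WTD0 replicate 2).

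The A minus B difference of 15 of 57 pairs (26.3%) also responded differently to zinc in the 2 yeasts. Of all rows of that fit 33.5% passed, so the share of pairs was not above it. With slide as a block 9 pairs remained. The A copy was the more positive in AhPDF1.1b yeast for RPL7 (0.36), RPL14 (0.42), RPL15 (0.83), RPL22 (0.94), RPL37 (0.46), RPL40 (0.43), RPS7 (0.65), RPS25 (0.87), RPS26 (1.25) and RPS28 (0.81). It was the more negative for RPL8 (-0.49), RPL23 (-0.47), RPL43 (-0.49), RPP1 (-0.79) and RPS27 (-1.42).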

How the results depend on the processing

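The medians of the ribosomal protein genes kept their sign under every alternative, and the scalings changed no count by more than 3. With a minimum log2 difference of 1, genes and pairs passing numbered 13 and 4 for zinc in WT yeast, 0 and 1 for zinc with AhPDF1.1b, 0 and 0 for AhPDF1.1b without zinc, 1 and 2 for AhPDF1.1b in the presence of zinc, 3 and 2 for both against untreated WT yeast, and 4 and 2 for the difference of zinc effects. Of all 6226 genes, passing or not, 457, 214, 10, 183, 293 and 246 reached that difference in the same comparisons. Slide as a block gave 28 genes and 14 pairs for zinc with AhPDF1.1b, 16 pairs for AhPDF1.1b in the presence of zinc, and 50 genes and 9 pairs for the difference of zinc effects. Over all genes 2366, 1755 and 1258 passed with this block in these 3 comparisons, in place of 2851, 3037 and 2095. For AhPDF1.1b without zinc 1 gene passed with an intensity trend, with array weights and with a replicate block, and 0 with only the arrays compared. Without the dimmest 25% of genes 1 gene also passed, since RPL18B was itself among those left out and was not tested there.

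Leaving out 1 array at a time gave, in the same order, 92 to 109 genes and 23 to 32 pairs, 22 to 44 and 13 to 28, 0 to 2 and 0 to 3, 78 to 97 and 21 to 36, 43 to 69 and 21 to 30, and 66 to 89 and 11 to 19. Of 158 named passing values, 38 were lost under at least 1 alternative, 25 of them with slide as a block. The sign turned only in 5 named values that had not passed, when an array was left out: RPL41A (-0.094 to 0.18) and RPS16B (-0.14 to 0.042) for AhPDF1.1b without zinc, turned without WTD0 replicate 2, RPP1A for zinc in WT yeast (-0.10 to 0.13, also -0.09), RPS22B for zinc with AhPDF1.1b (-0.0094 to 0.18) and RPS26A for both against untreated WT yeast (-0.10 to 0.0405, also 0.014). The causes were not tested.

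Replicate numbers were not used to pair the arrays in the main fit, and whether they mark a shared batch is not known here. Over all genes, deviations of same-numbered arrays correlated at 0.54 between WT0 and WT20. The value was 0.34 between WT0 and WTD0 and 0.09 between WT20 and WTD0. Between WTD20 and each other condition it was negative (-0.30 to -0.53). The replicate block changed no other count by over 1.5 times.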
